A study of Mus musculus with 9 samples.

Results

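The collagen genes of the deposited table were the rows whose symbol is Col, a type number, the letter a and a chain number. They were 43 of the 23231 genes in the table. Type numbers placed 9 of them among the fibrillar collagens (types 1, 2, 3, 5 and 11), 8 among the basement membrane collagens (types 4, 15 and 18), 6 in type 6 and 3 among the tendon-associated collagens (types 12, 14 and 22). The other 17 hold several structural kinds, Col24a1 and Col27a1 with fibrillar chains among them. RNA was sequenced from tibialis anterior, a fast muscle at the front of the lower leg, of C57BL/6 mice aged 6 months, in a study of ubiquitin ligases that act on muscle fibre size. All 9 libraries came from muscle into which small interfering RNA (siRNA) had been electroporated, which means that electric pulses carried it into the tissue. A non-targeting siRNA served as the control in 3 libraries, 3 received the Ubr4 siRNA called construct 5, and 3 received the Ubr4 siRNA called construct 7. The Ubr4 protein is a giant ligase of the N-degron pathway, which attaches ubiquitin to proteins by their N-terminal residue. Muscle that was never electroporated is not among the groups. Nothing in the labels says that the libraries came from separate animals, so each p-value measures the spread between libraries, which may be technical.

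Collagens are triple helices of 3 alpha chains. Fibrillar collagens of types 1 and 3 make up the cross-striated fibrils of the sheaths around muscle fibres, fascicles and tendon, and type 5 and type 11 chains sit within those fibrils and limit their width. Type 4 collagen forms the network of the basement membrane that wraps each muscle fibre and capillary, type 6 makes beaded filaments between that membrane and the fibrils, and types 12, 14 and 22 are carried on fibril surfaces or at the muscle-tendon junction. In muscle, fibroblasts and tendon cells are the main source of fibrillar chains, while endothelial cells and others contribute type 4. In RNA from whole muscle, fewer cells of a type and less RNA per cell cannot be told apart.

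The 250 bases before the start site are shown for 3 fibrillar genes that moved together between the siRNA constructs, from RefSeq on build GRCm38.p6 and written 5′ to 3′ on the strand of the gene. Capitals mark matches to the CCAAT box (its letters are CCAAT), the TATA box (searched as TATAAA) and the GC box (searched as GGGCGG). Both strands were searched, and no match overlaps another in these windows. The Col1a2 window is chr6:4505368-4505617 on the plus strand, that of Col3a1 is chr1:45311288-45311537 on the plus strand, and that of Col5a1 is chr2:27886175-27886424 on the plus strand.
Col1a2: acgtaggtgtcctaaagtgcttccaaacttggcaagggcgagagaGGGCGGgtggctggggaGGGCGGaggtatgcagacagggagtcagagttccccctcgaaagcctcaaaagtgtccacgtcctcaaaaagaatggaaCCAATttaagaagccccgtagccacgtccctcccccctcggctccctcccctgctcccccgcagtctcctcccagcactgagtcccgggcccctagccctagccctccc
Col3a1: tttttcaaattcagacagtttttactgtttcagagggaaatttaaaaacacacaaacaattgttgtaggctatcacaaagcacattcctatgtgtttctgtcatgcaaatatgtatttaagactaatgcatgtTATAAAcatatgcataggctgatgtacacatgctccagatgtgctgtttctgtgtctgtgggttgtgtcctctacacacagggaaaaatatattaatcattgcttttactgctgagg
Col5a1: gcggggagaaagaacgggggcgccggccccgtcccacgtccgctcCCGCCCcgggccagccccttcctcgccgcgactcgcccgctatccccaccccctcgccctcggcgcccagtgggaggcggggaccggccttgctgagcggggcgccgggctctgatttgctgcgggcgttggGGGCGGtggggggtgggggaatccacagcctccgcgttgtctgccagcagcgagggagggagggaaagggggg
The Col1a2 window holds a CCAAT box that begins 109 bases before the start and 2 GC boxes, with a GC content of 62%. Col3a1 has a GC content of 35.2% and a TATA box that begins 117 bases before the start, and the Col5a1 window has a GC content of 76.4% and 2 GC boxes. RefSeq windows were matched for 35 collagen genes, and where a gene has several, the one with the lowest coordinate was counted. Of the 6 fibrillar genes matched, 3 held a CCAAT box, 2 a TATA box and 5 a GC box. Among all 32851 windows of the same length the shares were 33.8%, 12.4% and 32.7%. The 7 basement membrane genes matched held a CCAAT box in 3, a GC box in 3 and a TATA box in 0, and the 6 type 6 genes held them in 1, 4 and 0. Over all 35 genes 11 held a CCAAT box, 5 a TATA box and 20 a GC box. These matches are descriptions of the letters and not sites of binding. Col4a1 and Col4a2 start within 22 bases of each other on opposite strands of chromosome 8 (Col4a1 at 11312826 on the minus strand, Col4a2 at 11312805 on the plus strand).

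Expression was deposited as FPKM, read number scaled to gene length and library size, so levels can be compared between genes. Depth recovered from the steps between low values was 29312137 to 45563567 reads, and 3 reads of a 1 kb gene would read as 0.0658 to 0.102 FPKM, which covers counting error alone. Ubr4 stood at 7.82 to 10.3 FPKM in the controls, 2.73 to 3.80 with construct 5 and 2.25 to 3.07 with construct 7. The log2 differences from the controls were -1.20 (limma adjusted p = 0.0168) and -1.47 (adjusted p = 0.00882), and an exact permutation test gave p = 0.1 for each, the smallest that 3 against 3 libraries allow. Without a single library the adjusted p of Ubr4 rose to at most 0.0955 with construct 5 (without its replicate 1) and 0.0879 with construct 7 (without control replicate 3). Muscle fibre markers summed to 67798 to 89127 FPKM in every library, the markers of the labelled tissue. Of the 10794 genes with a mean of at least 1 FPKM, limma called 504 higher and 65 lower with construct 5 at an adjusted p under 0.05, and 0 higher and 6 lower with construct 7. With median-ratio scaling of the libraries the construct 5 split became 28 higher and 169 lower, because the median change of all genes moved from 0.13 to -0.02. Between the constructs the split of construct 7 against construct 5 was 16 higher and 116 lower, and 66 higher and 39 lower after that scaling (median change from -0.10 to 0.03). All log2 differences below are between means of log2(FPKM + 1), which understates changes of low genes.

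Fibrillar and type 4 chains dominated the collagen RNA of control muscle. Collagens held 0.0874% of all FPKM there, and the 5 most abundant genes held 74.2% of the collagen FPKM. Col3a1, the single chain of type 3 collagen (ENSMUSG00000026043), was highest at 119.8 ± 14.1 FPKM (mean ± SD, n = 3). Col1a1 (ENSMUSG00000001506) and Col1a2 (ENSMUSG00000029661), the chains of type 1 collagen, stood at 69.3 ± 5.37 and 38.7 ± 2.36 FPKM. Col4a1 (ENSMUSG00000031502) and Col4a2 (ENSMUSG00000031503), the ubiquitous chains of the basement membrane network, stood at 62.9 ± 13.4 and 41.2 ± 7.53 FPKM. In the order of control means, Col3a1 lay above Col1a1 with no overlap of libraries, while the ranges of Col1a1 and Col4a1 overlapped, as did those of Col4a2 and Col1a2. Col6a1 (24.9 FPKM) and Col15a1 (15.9 FPKM) followed without overlap of their neighbours above. Col6a2 (14.1 FPKM) overlapped Col15a1, and Col5a1 (10.6 FPKM), Col5a3 (9.88 FPKM), Col6a3 (9.27 FPKM) and Col5a2 (8.91 FPKM) each overlapped the next. Below a gap came Col14a1 (3.60 FPKM), Col18a1 (2.55 FPKM), Col22a1 (2.10 FPKM), Col16a1 (1.89 FPKM), Col7a1 (1.56 FPKM) and Col8a1 (1.52 FPKM), each overlapping its neighbour. Col20a1 (1.10 FPKM) and Col11a2 (0.970 FPKM) ended the 20 genes that passed the minimum mean of 1 FPKM over all libraries. Col11a2 was the only gene among them with a control mean under 1 FPKM, so it passed through its construct 5 values.

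**Figure D1:**
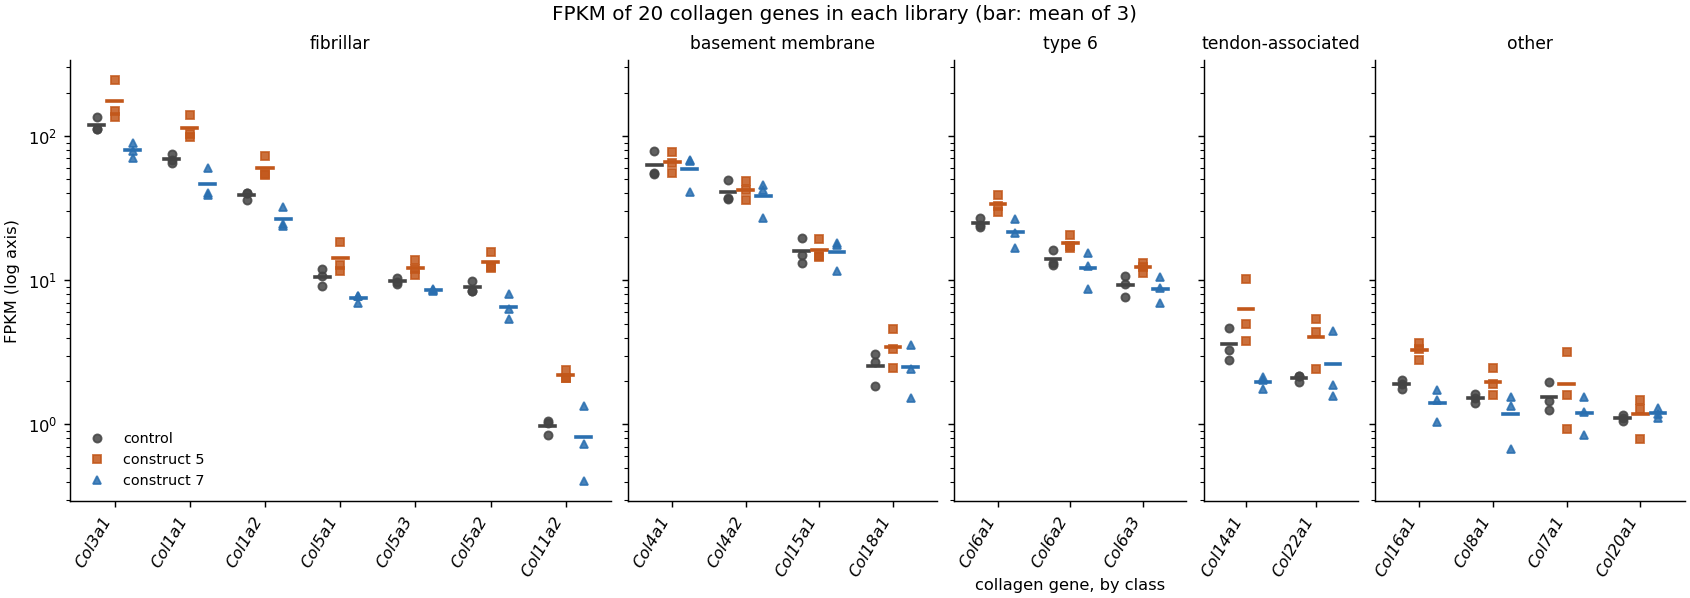
FPKM (log axis) of the 20 collagen genes with a mean of at least 1 FPKM, by class, in each library. Points are libraries and bars the means of 3. Fibrillar genes are high with construct 5 and low with construct 7 (Col1a1 98.9 to 139 and 38.9 to 60.3 FPKM), while the groups of Col4a1 lie over each other (54.6 to 78.4, 54.9 to 77.9 and 41.2 to 68.4 FPKM).

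Fibrillar collagen RNA was higher with construct 5 than in the controls. Summed over the 9 fibrillar genes it was 259 ± 17.9 FPKM in the controls and 393 ± 98.9 FPKM with construct 5 (mean ± SD, n = 3), 1.52 times as much, and the libraries did not overlap. Col1a1 stood at 75.2, 67.9 and 64.7 FPKM in the control libraries and at 103, 139 and 98.9 FPKM with construct 5. Col1a2 stood at 40.1, 40.1 and 36.0 FPKM in the controls and at 54.7, 73.0 and 53.2 FPKM with construct 5. Every construct 5 library exceeded every control library for both type 1 chains. Col1a2 rose by 0.61 on the log2 scale (SE 0.14, limma adjusted p = 0.0491), and the difference of Col1a1 was 0.69 (SE 0.18, adjusted p = 0.0557), which missed the threshold. Col3a1 stood at 112, 136 and 111 FPKM in the controls and at 136, 244 and 148 FPKM with construct 5, so that the lowest construct 5 library lay within the control range. Its difference was 0.51 (adjusted p = 0.124).

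None of the 3 type 5 chains was called with construct 5. Col5a1, which forms type 5 helices with Col5a2, stood at 9.18, 11.9 and 10.6 FPKM in the controls and at 11.5, 18.5 and 12.8 FPKM with construct 5, with 1 library inside the control range. Col5a2 stood at 8.41, 9.86 and 8.44 FPKM against 12.3, 15.6 and 12.2 FPKM. Col5a3, the third type 5 chain, stood at 9.45, 10.4 and 9.75 FPKM against 12.0, 13.8 and 10.9 FPKM. The groups of Col5a2 and Col5a3 did not overlap, with differences of 0.53 (limma adjusted p = 0.0558) and 0.28 (adjusted p = 0.0746). Col11a2, a chain of type 11 collagen known from cartilage, stood at 1.02, 1.05 and 0.840 FPKM in the controls and at 2.40, 2.09 and 2.08 FPKM with construct 5, with every construct 5 library above the controls. Its difference was 0.70 (SE 0.16, adjusted p = 0.0490), but it reached the minimum mean only through construct 5, where it was high, so this p supports no call. Its values rest on 120 to 655 reads per library. Of the 6 fibrillar genes with a control mean of at least 1 FPKM, 1 was called higher with construct 5 (Col1a2), 4 had no overlap with the controls and 6 had an unadjusted p under 0.05. Over all genes tested, 4.67% were called higher, 33% had every construct 5 library above the controls and 31.9% had an unadjusted p under 0.05. The median change of these 6 genes was 0.52, against 0.13 for all genes. With Col11a2 the median was 0.53, and 0.36 with median-ratio scaling.

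Basement membrane collagens gave no such difference with construct 5. Col4a1 stood at 55.6, 78.4 and 54.6 FPKM in the controls and at 64.9, 77.9 and 54.9 FPKM with construct 5. Col4a2 stood at 37.1, 49.8 and 36.5 FPKM against 42.0, 49.0 and 36.0 FPKM. The groups overlapped for both, with differences of 0.07 (95% interval -0.42 to 0.56) and 0.04 (-0.40 to 0.49). Col15a1, a basement membrane collagen that muscle needs for stability, stood at 13.2, 19.5 and 15.0 FPKM in the controls and at 14.7, 19.4 and 14.4 FPKM with construct 5. Col18a1, the source of endostatin, stood at 1.85, 3.10 and 2.70 FPKM against 4.58, 3.32 and 2.45 FPKM. Both groups overlapped, with differences of 0.03 and 0.32 (limma adjusted p = 0.919 and 0.372). None of the 4 tested genes was called, none had an unadjusted p under 0.05 and none was free of overlap. Their median change was 0.06 as deposited and -0.12 with median-ratio scaling. The upper bounds of the 4 intervals reach from 0.46 to 0.85, so increases of the size of the fibrillar median lie within the intervals of Col4a1 and Col18a1.

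Type 6 collagen genes lay between those classes. Col6a1, 1 of the 3 chains of the main type 6 helix, stood at 23.3, 27.0 and 24.3 FPKM in the controls and at 32.5, 38.8 and 29.7 FPKM with construct 5. Col6a2 stood at 12.7, 16.3 and 13.2 FPKM against 17.3, 20.5 and 16.7 FPKM, and Col6a3 at 7.63, 10.8 and 9.41 FPKM against 13.2, 12.4 and 11.2 FPKM. All 3 genes had every construct 5 library above the controls, yet none was called (differences 0.42, 0.35 and 0.38, limma adjusted p from 0.113 to 0.206). That order was found for 33% of all genes tested. With median-ratio scaling 1 of the 3 had groups without overlap, and the class median went from 0.38 to 0.21. The class sum was 49.3 ± 5.43 FPKM in the controls and 65.4 ± 7.40 FPKM with construct 5.

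Tendon-associated genes were few and low. Col14a1, a collagen of fibril surfaces, stood at 3.29, 4.68 and 2.81 FPKM in the controls and at 3.79, 10.1 and 5.00 FPKM with construct 5. Col22a1, a collagen of the muscle-tendon junction, stood at 2.17, 2.18 and 1.96 FPKM against 4.35, 2.42 and 5.36 FPKM. Only Col22a1 was free of overlap, and neither was called (differences 0.59 and 0.65, limma adjusted p = 0.165 and 0.153). Every construct 5 library lay above the controls for 33% of all genes tested. With median-ratio scaling 0 of these 2 genes had that order. Col12a1, also of fibril surfaces, had a mean under 1 FPKM and was not tested. It stood at 0.838, 0.606 and 0.725 FPKM in the controls and at 1.58, 1.31 and 1.43 FPKM with construct 5, above every control library. Col16a1, a fibril-associated collagen among the others, stood at 2.03, 1.75 and 1.90 FPKM against 3.34, 3.68 and 2.78 FPKM and rose by 0.56 (SE 0.12, adjusted p = 0.0458). Its groups did not overlap.

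In all, 3 of 20 tested collagens had an adjusted p under 0.05 with construct 5 (Col1a2, Col11a2 and Col16a1), all higher, or 2 of the 19 with a control mean of at least 1 FPKM, beside 5.27% of all genes called in either direction. No collagen was called lower (0.602% of all genes), and none had every construct 5 library below the controls (5.19% of all genes). Voom on recovered reads called 2 of these. The calls did not hold when single libraries were left out. The count was 0 without control replicate 1, 2 or 3, and 0 without construct 5 replicate 1 or 2 or construct 7 replicate 3. The calls over all genes then fell from 569 to between 1 and 42. Without construct 7 replicate 1 the collagen count was 1 and without construct 7 replicate 2 it was 5, and 0 were called after median-ratio or quantile scaling. It was also 0 with a pseudocount of 0.1. With the construct 7 libraries left out of the fit it was 4 (Col1a1, Col11a2, Col12a1 and Col16a1), and Col1a2 was no longer called. Of these 4, Col11a2 and Col12a1 had control means of 0.970 and 0.723 FPKM and passed the minimum only through construct 5.

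With construct 7 most fibrillar genes lay below the controls. Their sum was 177 ± 27.5 FPKM (mean ± SD, n = 3), 0.683 times the control mean, with no overlap. Col1a1 stood at 38.9, 60.3 and 40.3 FPKM, Col1a2 at 23.8, 31.9 and 24.5 FPKM, and Col3a1 at 70.6, 89.1 and 79.1 FPKM, each below its lowest control library. Col5a1 (6.98, 7.77 and 7.82 FPKM), Col5a2 (5.36, 8.02 and 6.27 FPKM) and Col5a3 (8.68, 8.52 and 8.43 FPKM) were below their controls as well. Col11a2 stood at 0.726, 1.34 and 0.404 FPKM on both sides of its controls. Against the controls the differences were -0.59 for Col1a1, -0.53 for Col1a2, -0.58 for Col3a1, -0.44 for Col5a1, -0.40 for Col5a2, -0.19 for Col5a3 and -0.14 for Col11a2 (limma adjusted p from 0.311 to 0.841). None of the 20 tested collagens was called, beside 0.0556% of all genes. Voom on recovered reads also called 0. An unadjusted p under 0.05 was found for 6 collagens, 5 of them fibrillar, against 9.47% of all genes. Every construct 7 library lay below the controls for 8 of 20 collagens, 6 of them fibrillar, against 6.26% of all genes. No tested collagen had every construct 7 library above the controls, against 10.5% of all genes.

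All basement membrane and type 6 genes tested overlapped the controls with construct 7. Col4a1 stood at 41.2, 68.4 and 67.6 FPKM, Col4a2 at 27.2, 45.4 and 42.3 FPKM, Col15a1 at 11.6, 18.2 and 17.5 FPKM and Col18a1 at 1.52, 3.57 and 2.44 FPKM. Replicate 1 was the lowest of the 3 for each of these genes. Col6a1 stood at 16.8, 26.7 and 21.4 FPKM, Col6a2 at 8.65, 15.5 and 12.5 FPKM and Col6a3 at 6.90, 10.5 and 8.83 FPKM, again lowest in replicate 1. Median changes were -0.44 for fibrillar genes, -0.07 for basement membrane genes, -0.22 for type 6 and -0.23 for the tendon-associated pair, against 0.02 for all genes. Col14a1 (1.76, 2.03 and 2.14 FPKM) lay below every control, and Col22a1 (1.56, 4.44 and 1.88 FPKM) had its highest value in replicate 2. The difference of Col14a1 was -0.61 (limma adjusted p = 0.528). Col16a1 (1.04, 1.73 and 1.48 FPKM) lay below the controls, with a difference of -0.27 (adjusted p = 0.521).

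**Figure D2:**
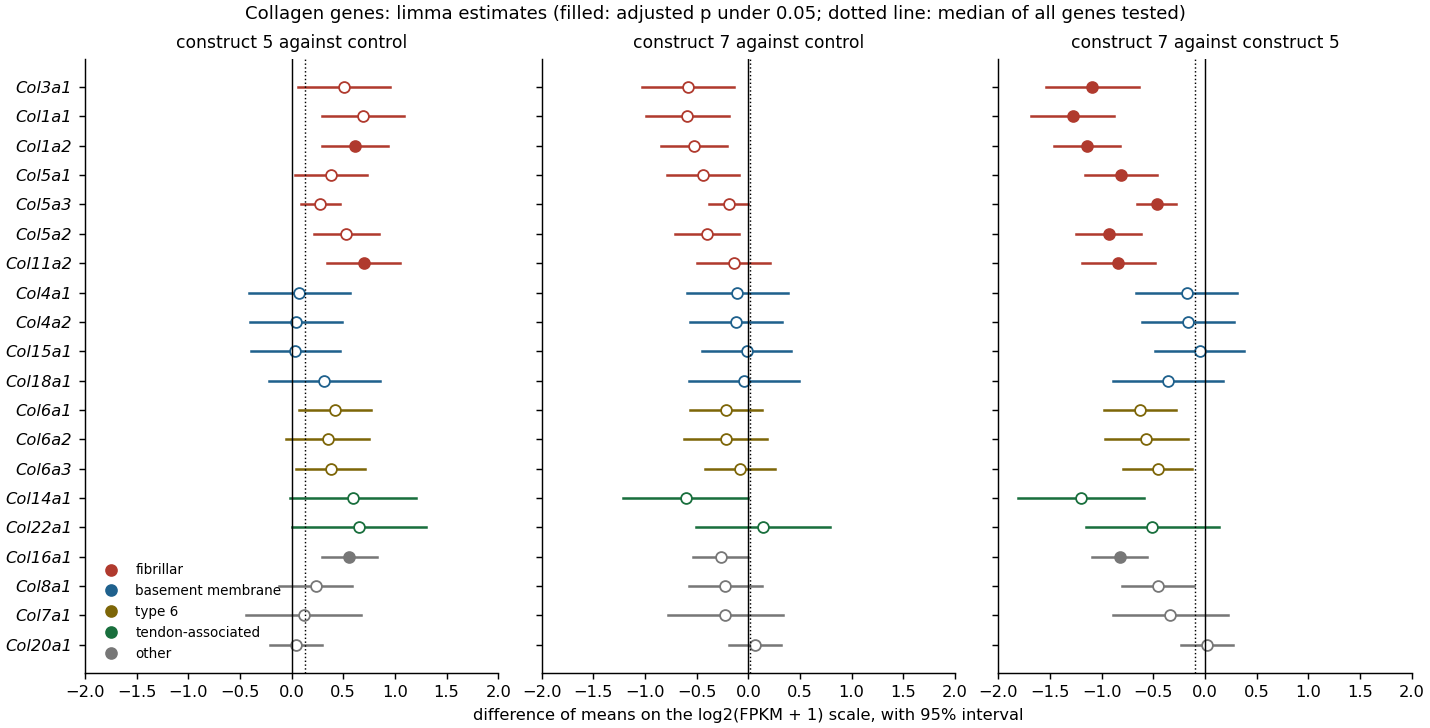
Differences between group means on the log2(FPKM + 1) scale (x axis) for the 20 tested collagens, with 95% intervals. Filled points have a limma adjusted p under 0.05 and dotted lines are the medians of all genes tested. Construct 7 against construct 5 has 8 filled points, from -1.28 for Col1a1 to -0.47 for Col5a3, and construct 7 against the controls has 0.

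Tested against each other, the constructs differed in each of the 6 fibrillar genes with a control mean of at least 1 FPKM, and construct 7 was the lower. Col1a1 differed by -1.28 (SE 0.18, limma adjusted p = 0.0201), Col1a2 by -1.14 (SE 0.14, adjusted p = 0.0174) and Col3a1 by -1.09 (SE 0.20, adjusted p = 0.0443). Mean FPKM with construct 7 was 0.410, 0.443 and 0.452 times that with construct 5 for these genes. Col5a1 differed by -0.81 (adjusted p = 0.0471), Col5a2 by -0.93 (adjusted p = 0.0224) and Col5a3 by -0.47 (adjusted p = 0.0419). Groups did not overlap for any of the 6 genes, nor for Col11a2 or the untested Col2a1 and Col11a1. Col11a2, which reached the minimum through construct 5 alone, differed by -0.84 (adjusted p = 0.0463). Col16a1 was the eighth collagen called, with a difference of -0.82 (adjusted p = 0.0224). The calls were 8 of 20 tested collagens, or 7 of the 19 with a control mean of at least 1 FPKM, all lower, against 1.22% of all genes called, 1.07% lower and 0.148% higher. Groups without overlap, construct 7 below, were 13 of 20 (12 of those 19), against 22.4% of all genes, and 0 of 20 had construct 7 above, against 3.02% of all genes.

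Outside the fibrillar class no basement membrane, type 6 or tendon-associated gene was called between the constructs. Differences were -0.18 for Col4a1 (95% interval -0.67 to 0.31), -0.16 for Col4a2 (-0.61 to 0.28), -0.05 for Col15a1 and -0.36 for Col18a1, with overlapping groups. Col6a1, Col6a2 and Col6a3 differed by -0.63, -0.57 and -0.46 without overlap (limma adjusted p = 0.0710, 0.121 and 0.129). Col14a1 differed by -1.20, as far as the type 1 chains, but with a wider interval of -1.81 to -0.59 (adjusted p = 0.0632), and Col22a1 by -0.51 (adjusted p = 0.308). Class medians were -0.93 for fibrillar, -0.17 for basement membrane, -0.57 for type 6 and -0.86 for tendon-associated genes, against -0.10 for all genes. No test compares the classes with each other. Ubr4 itself differed by -0.27 between the constructs (adjusted p = 0.246).

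The 8 collagens kept their direction in every alternative analysis, where Col1a1 ranged from -1.48 to -1.12 and Col1a2 from -1.27 to -0.98. Their groups did not overlap, so leaving out a library or changing the pseudocount or minimum mean could not reverse a direction. The number called did not hold. It was 0 without construct 7 replicate 1 or 3, 1 without construct 5 replicate 1 and 3 without construct 5 replicate 2. It was 4 when a single control replicate was left out, 10 without construct 7 replicate 2 and 4 after median-ratio or quantile scaling. It was also 0 with no minimum mean and with the control libraries left out of the fit, and 8 by voom on recovered reads. Both comparisons with controls share the same 3 control libraries, so their values are not independent of each other. Averaged over both constructs, 0 of 20 collagens were called against the controls by limma or by voom, 0 had an unadjusted p under 0.05 (19.1% of all genes) and 0.00926% of all genes were called. All 6 Ubr4 siRNA libraries lay above the controls for 0 of 20 tested collagens (8.04% of all genes) and below them for 0 (1.45% of all genes). The fibrillar median was then 0.04.

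Ratios within a library do not depend on how that library is scaled. Fibrillar over basement membrane FPKM was 2.36, 1.83 and 2.20 in the controls, 2.62, 3.36 and 3.13 with construct 5 and 1.88, 1.52 and 1.28 with construct 7. Construct 5 lay above the controls and construct 7 below construct 5 without overlap, while construct 7 overlapped the controls. Fibrillar genes made up 58.0 ± 2.36% of collagen FPKM in the controls, 63.8 ± 3.16% with construct 5 and 50.8 ± 3.86% with construct 7, and those 3 groups did not overlap. Col1a1 over Col4a1 was 1.35, 0.866 and 1.18 in the controls, 1.58, 1.79 and 1.80 with construct 5 and 0.945, 0.881 and 0.596 with construct 7. Type 6 over basement membrane was 0.410, 0.364 and 0.438 in the controls, 0.503, 0.486 and 0.542 with construct 5 and 0.403, 0.392 and 0.332 with construct 7, again highest with construct 5. Basement membrane sums alone were 123 ± 24.5, 129 ± 21.3 and 117 ± 29.5 FPKM, with overlap throughout. Tendon-associated sums were 6.42 ± 0.994, 11.8 ± 2.07 and 5.20 ± 1.84 FPKM, highest with construct 5 without overlap. The fibrillar sum with construct 5 was 1.30 times the control mean without replicate 2, its highest library (507 FPKM, against 332 and 339).

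**Figure D3:**
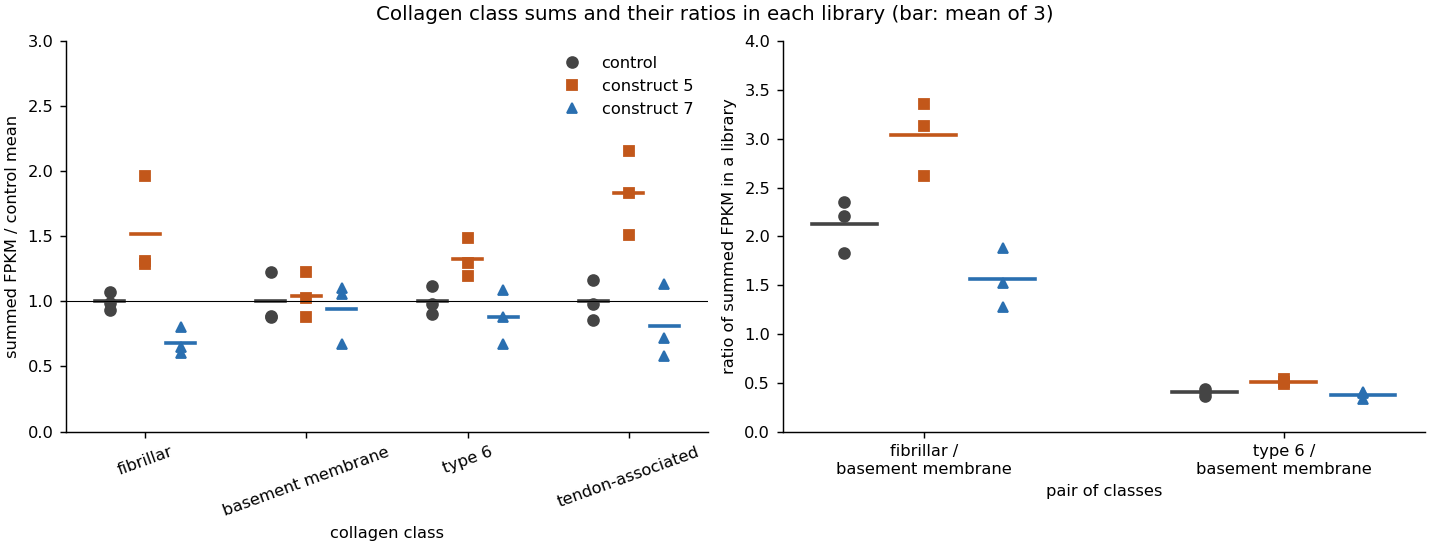
Left, summed FPKM of each collagen class divided by its control mean (y axis), by class. Right, ratio of class sums within a library. Points are libraries and bars means of 3. The fibrillar to basement membrane ratio is 2.62 to 3.36 with construct 5 and 1.28 to 1.88 with construct 7, and basement membrane sums overlap in all groups.

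Ratios between chains that share a helix varied by different amounts over the 9 libraries. Col1a1 over Col1a2 ranged from 1.63 to 1.91 over the 9 libraries, while levels of Col1a1 ranged from 38.9 to 139 FPKM. Col4a1 over Col4a2 ranged from 1.50 to 1.60, with a coefficient of variation of 2.56%, the smallest of the pairs computed. Col6a1 over Col6a2 ranged from 1.66 to 1.94. In these 3 pairs the first chain was the higher in 9 of 9 libraries. Other pairs of the same helix were wider, Col6a1 over Col6a3 at 2.42 to 3.14 (coefficient of variation 10.2%) and Col5a1 over Col5a2 at 0.933 to 1.30 (11.7%). Of pairs from different helices, Col3a1 over Col1a1 ranged from 1.32 to 2.00 (14.1%) and Col15a1 over Col4a1 from 0.227 to 0.281 (6.83%). Groups overlapped for each of these ratios. Col5a3 over Col5a1 was 1.03, 0.877 and 0.916 in the controls and 1.04, 0.747 and 0.856 with construct 5, and stood above both at 1.24, 1.10 and 1.08 with construct 7.

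**Figure D4:**
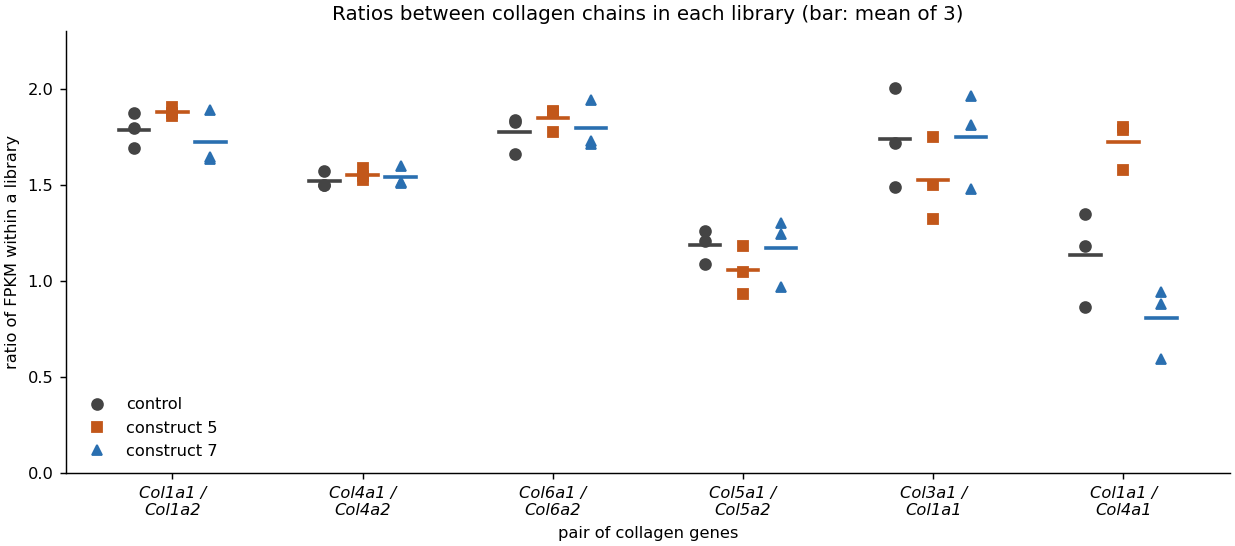
Ratio of FPKM between collagen genes within a library (y axis) for 6 pairs, by group, with bars for means of 3. Col4a1 over Col4a2 stays at 1.50 to 1.60 in all libraries, and Col1a1 over Col4a1 is 1.58 to 1.80 with construct 5 and 0.596 to 0.945 with construct 7.

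The genes that make, assemble and remove collagen were counted by role. Their counts are to be read against the shares of all genes, 4.67% called higher and 0.602% lower with construct 5, and 1.07% lower and 0.148% higher between constructs. An unadjusted limma p under 0.05 was found for 31.9% of all genes with construct 5 and 23.1% between constructs. The median change of all genes was 0.13 with construct 5 and -0.10 between constructs. With median-ratio scaling it was -0.02 and 0.03, and the list medians below are without that scaling. Each call in these lists was lost in some of the alternative analyses: the 10 with construct 5 were made in 3 to 8 of 16 or 17 alternatives, with adjusted p up to 0.212, and the 18 between constructs in 4 to 14, with adjusted p up to 0.149. Of 13 tested genes for prolyl and lysyl modification, 1 was called higher with construct 5: Plod2, a lysyl hydroxylase, at 0.816, 0.866 and 0.906 FPKM in the controls, 1.54, 1.71 and 1.61 FPKM with construct 5 and 0.759, 1.01 and 0.961 FPKM with construct 7 (limma log2 difference 0.49, adjusted p = 0.0405). Plod2 was also called lower in construct 7 against construct 5, but it reached the minimum mean only through construct 5 (control mean 0.863 FPKM, construct 7 mean 0.911 FPKM), so neither call supports a change of the list. The median change of these genes was 0.27 with construct 5 and -0.29 between constructs. Of 12 tested folding and export genes, 1 was called, and it moved the other way: Sec23a, a coat protein of vesicles that leave the endoplasmic reticulum, stood at 17.2, 19.2 and 21.3 FPKM in the controls, 12.7, 15.0 and 13.4 FPKM with construct 5 and 27.3, 23.0 and 23.0 FPKM with construct 7. It fell by 0.46 with construct 5 (adjusted p = 0.0476) and was higher by 0.79 with construct 7 than with construct 5 (adjusted p = 0.0195). All 3 tested propeptide processing genes were lower with construct 7 than with construct 5. They were Bmp1, the procollagen C-proteinase (-0.72, adjusted p = 0.0325), its enhancer Pcolce (-0.55, adjusted p = 0.0488) and the N-proteinase Adamts2 (-0.65, adjusted p = 0.0393), and 0 of the 3 were called with construct 5 (3 with an unadjusted p under 0.05).

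Among 6 tested crosslinking genes was Lox, the lysyl oxidase that starts crosslinks between collagen molecules. Lox stood at 3.23, 2.49 and 2.57 FPKM in the controls, 3.83, 3.07 and 3.29 FPKM with construct 5 and 1.48, 1.39 and 1.26 FPKM with construct 7. It differed by -0.88 between the constructs (limma adjusted p = 0.0119) without overlap, and its construct 7 libraries also lay below the controls. Loxl3, a related oxidase, was called higher with construct 5 (0.37, adjusted p = 0.0490) and lower between constructs, in 4 and 6 of 16 alternatives. Of 14 tested proteins that bind fibrils, 3 were called higher with construct 5: Kera (keratocan, 1.12), Comp (cartilage oligomeric matrix protein, 0.96) and Thbs2 (thrombospondin 2, 0.52), with adjusted p from 0.0406 to 0.0450. These 3, Aspn and Fn1 (fibronectin, -1.47, adjusted p = 0.0345) were lower with construct 7 than with construct 5. Of 10 tested laminins and other partners of type 4 collagen, 0 were called in either comparison (2 with an unadjusted p under 0.05 in each), with median changes of 0.17 and -0.24. The most abundant partners were Lamb2, a laminin chain, at 23.1 to 32.1 FPKM and Hspg2, perlecan, at 18.5 to 26.2 FPKM over the 9 libraries.

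Of 12 tested genes for collagen breakdown and its inhibitors, 3 were called higher with construct 5. They were Ctsk, the collagenolytic cathepsin (8.89, 10.2 and 8.14 FPKM against 15.2, 15.5 and 13.6 FPKM, limma log2 difference 0.65, adjusted p = 0.0406), the collagen uptake receptor Mrc2 (0.43) and Mmp11 (0.38). The calls were made in 7 of 17 alternatives for Ctsk, 4 of 16 for Mrc2 and 3 of 16 for Mmp11. Between the constructs 5 were called lower: Ctsk, Mrc2, Mmp14, Mmp2 and Timp2. The median change of the list was 0.39 with construct 5 and -0.48 between constructs. It includes Mmp3, which was not called and reached the minimum mean only through construct 5 (control mean 0.850 FPKM). Of 7 tested collagen receptors, 0 were called with construct 5 (3 with an unadjusted p under 0.05), and Antxr1 was called lower between constructs (-0.97, adjusted p = 0.0391). Of 16 tested ligands, receptors and targets of TGF-beta, a growth factor that raises fibrillar collagen transcription, 1 was called with construct 5, Smad2 (0.38, adjusted p = 0.0430), and 0 between constructs (6 with an unadjusted p under 0.05). With construct 7 against the controls no gene of these lists was called, by the same test, beside 0.0556% of all genes. An unadjusted p under 0.05 was found for 0 to 5 genes a list, against 9.47% of all genes. The highest count was 5 of 14 tested proteins that bind fibrils. The lists were chosen with earlier results of these data known.

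Macrophage and tenocyte markers were higher with construct 5 in sum, and endothelial, pericyte and Schwann cell markers were not. Macrophage markers summed to 127 to 187 FPKM in the controls, 208 to 375 FPKM with construct 5 and 103 to 156 FPKM with construct 7, and 3 of 11 tested were called higher with construct 5 (Lyz2, Lgals3 and Gpnmb), against 4.67% of all genes. With construct 7 the macrophage sums overlapped the controls and 0 were called (1 at an unadjusted p under 0.05, against 9.47% of all genes), while fibrillar sums lay below the controls. Tenocyte markers summed to 49.7 to 74.8, 108 to 155 and 38.5 to 82.8 FPKM, with 2 of 9 tested called higher with construct 5 (Comp and Kera). These 5 marker calls were made in 4 to 8 of 16 or 17 alternatives. Comp, Kera and Fmod are also on the fibril list. Cilp2, a tested tenocyte marker that was not called, reached the minimum mean only through construct 5 (control mean 0.893 FPKM). Fibroblast markers summed to 493 to 550, 505 to 819 and 366 to 499 FPKM, with 0 of 12 called with construct 5. An unadjusted p under 0.05 was found for 3 (31.9% of all genes), and the median change was 0.28 (0.13 for all genes). Endothelial markers summed to 118 to 143, 118 to 150 and 117 to 135 FPKM, with 0 of 11 called and a median change of 0.00. Pericyte and smooth muscle markers summed to 173 to 189, 172 to 177 and 157 to 186 FPKM, with 0 of 8 called. Schwann cell markers summed to 21.3 to 36.6, 16.1 to 30.3 and 20.1 to 33.6 FPKM, with 0 of 4 called (0 at an unadjusted p under 0.05 in these 3 lists). Chondrocyte markers summed to at most 1.12 FPKM, all under the minimum mean, and no marker of any list was at 0 in every library. Construct 5 replicate 2, highest in the fibrillar sum, was also highest of its group in fibroblast (819 FPKM) and macrophage markers (375 FPKM) and lowest in tenocyte markers (108 FPKM). Between constructs, 1 of 12 fibroblast (Serpinf1), 2 of 9 tenocyte and 3 of 11 macrophage markers were called lower, against 1.07% of all genes. These calls were made in 2 to 12 of 16 or 17 alternatives. Their lists had median changes of -0.54, -1.10 and -0.91, and the endothelial list -0.03, against -0.10 for all genes. Every construct 7 library lay below construct 5 for 7 fibroblast markers (22.4% of all genes) and below the controls for 5 (6.26%). The part of these cells in the collagen differences was not tested.

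The remaining tested collagens varied without a call. Col8a1, a short-chain collagen of vessel walls, had a control mean of 1.52 FPKM and log2 differences of 0.23 with construct 5, -0.22 with construct 7 and -0.46 between them. Col7a1, of anchoring fibrils, had a control mean of 1.56 FPKM and differences of 0.11, -0.22 and -0.34. Col20a1, a fibril-associated collagen, had a control mean of 1.10 FPKM and differences of 0.04, 0.06 and 0.02. The other 23 collagen genes had means under 1 FPKM, up to 0.999 FPKM for Col24a1, against 1.16 FPKM for Col20a1, the lowest tested. No gene among them was at 0 in every library, and their highest single value was 2.26 FPKM, of Col24a1 in a construct 5 library. They include Col2a1 and Col11a1 of the fibrillar class, the type 4 chains Col4a3, Col4a4, Col4a5 and Col4a6, and Col6a4, Col6a5 and Col6a6. Over all 43 genes, tested or not, every construct 5 library exceeded the controls for 20, every construct 7 library was below the controls for 9, and every construct 7 library was below construct 5 for 22. Among all genes tested the shares in these directions were 33%, 6.26% and 22.4%. No share was computed for genes under the minimum mean.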

How the data were processed

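Total RNA from 9 libraries was sequenced. FPKM values per gene were computed by the authors and deposited as 1 table of 23231 genes, 22501 of them above 0. The submitters' processing notes name BWA, STAR, HTSeq and build mm9, and their versions, order and strand setting are not given in the sources used here, so antisense partners cannot be told apart. Gene positions are not given, because the reference used for promoters is GRCm38.p6.

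Levels were compared as log2(FPKM + 1) for the 10794 genes with a mean of at least 1 FPKM. Limma 3.58.1 (R 4.3.3, moderated variance, all 3 groups in one model) gave differences, 95% intervals and Benjamini-Hochberg adjusted p over all genes tested, with a threshold of 0.05. Sums, ratios and figures used Python 3.11.15, pandas 2.3.3, numpy 2.4.6 and matplotlib 3.10.9. Whole reads were estimated from the steps between low FPKM values, and 72.8% of 51650 values under 50 reads came out whole within 0.1 reads. Recovered depth was 29312137 to 45563567 reads, so collagens under 1 FPKM are imprecise. On simulated data for construct 5 against control with 200 changed genes among 10794, 52% were recovered at a log2 change of 0.5 and 90% at 1, with 6 false among 148 calls. The simulated noise was independent between genes, with no shift shared by a whole library. These rates therefore need not hold for the deposited values.

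Values in every library are given for the 4 most abundant tested genes of each class, for each collagen called in any comparison and for those outside the control range in all libraries of both constructs. Pathway genes named are called ones, at most 4 a list, or else the most abundant; Aspn, Mmp2, Timp2 and the macrophage markers were added after their values were seen. Alternatives were another pseudocount, other minimum means, median-ratio and quantile scaling, a replicate block, the libraries of the contrast only, leaving out each library and, added after seeing the data, voom on recovered reads. The members and lists were chosen with earlier results of these data known.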

Additional observations from a re-analysis of the deposited data

Results flagged for a closer look

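Limma's test of construct 7 against construct 5 called 8 of 20 tested collagens (adjusted p under the threshold for each), against 1.22% of all genes. The number called fell to 0 without construct 7 replicate 1 or 3. The log2 differences were -1.28 for Col1a1, -1.14 for Col1a2, -1.09 for Col3a1, -0.81 for Col5a1, -0.93 for Col5a2, -0.47 for Col5a3, -0.84 for Col11a2 and -0.82 for Col16a1. Col11a2 reached the minimum mean only through construct 5, where it was high, so its test supports no call. In each of the 8 genes all 3 construct 7 libraries lay below all 3 construct 5 libraries, as they did for 22.4% of all genes. Ubr4 was low with both constructs.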

How the results depend on the processing

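The number of collagens called with construct 5 went from 3 to 0 with a pseudocount of 0.1, with no minimum mean, with median-ratio or quantile scaling and with the replicate block, to 1 with a minimum mean of 5 FPKM, and to 0 to 5 when single libraries were left out. The number called between constructs went from 8 to 0 with no minimum mean or with the libraries of the contrast only, to 5 with a minimum of 5 FPKM, to 4 with either scaling, and to 0 to 10 without single libraries. Over all genes, the calls with construct 5 went from 569 to 316 with a pseudocount of 0.1, 197 with median-ratio and 86 with quantile scaling. Correlations between same-numbered libraries of different groups, after group means were removed, ranged from -0.36 to 0.31. Those between differently numbered libraries ranged from -0.57 to 0.52, so they cannot decide whether replicate numbers pair the libraries. The replicate block gave 0 collagens (11 genes) with construct 5 and 10 collagens (217 genes, from 132) between constructs. With construct 7 against control, and with both constructs, 0 collagens were called in every alternative run.

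With no minimum mean, Ubr4 missed the threshold at unchanged differences of -1.20, -1.47 and -1.33 (construct 5, construct 7 and both). Without single libraries its differences ranged from -1.29 to -1.09, -1.56 to -1.38 and -1.43 to -1.25. The type 6 median with construct 5 was 0.24 with no minimum mean and 0.21 with median-ratio scaling, where the sum ratio was 1.17. Without the most abundant gene, the tendon-associated ratio of construct 7 to control was 1.14 and the fibrillar to basement membrane ratio with construct 5 was 3.45.

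Groups of the called collagens did not overlap, so most alternatives could not reverse them. Directions reversed only among differences that were not called. With construct 5 and median-ratio scaling these were Col4a1 (-0.11), Col4a2 (-0.14), Col7a1 (-0.000275), Col15a1 (-0.14) and Col20a1 (-0.062), and with quantile scaling Col4a2 (-0.015), Col7a1 (-0.061), Col15a1 (-0.060) and Col20a1 (-0.16). Between constructs Col15a1 was 0.10 and 0.033 under the 2 scalings. Without single libraries the direction also changed, with ranges with construct 5 for Col4a1 (-0.053 to 0.24), Col4a2 (-0.065 to 0.19), Col7a1 (-0.19 to 0.37), Col15a1 (-0.10 to 0.18) and Col20a1 (-0.056 to 0.17); with construct 7 for Col4a1 (-0.23 to 0.13), Col4a2 (-0.26 to 0.10), Col6a3 (-0.21 to 0.061), Col11a2 (-0.34 to 0.029), Col15a1 (-0.14 to 0.18), Col18a1 (-0.25 to 0.18) and Col22a1 (-0.19 to 0.35); and between constructs for Col4a1 (-0.30 to 0.059), Col4a2 (-0.30 to 0.059), Col15a1 (-0.16 to 0.14) and Col20a1 (-0.11 to 0.12). Where an alternative did not itself use fewer genes or libraries, the cause was not tested.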

Other observations

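Col13a1, a transmembrane collagen of the neuromuscular junction, was under the minimum mean and was not tested. It stood at 0.237, 0.248 and 0.236 FPKM in the controls, 0.478, 0.347 and 0.335 FPKM with construct 5 and 0.327, 0.327 and 0.262 FPKM with construct 7, so that all 6 Ubr4 siRNA libraries lay above all controls. Col19a1, a fibril-associated collagen, showed the same order at 0.079, 0.063 and 0.042 FPKM, 0.272, 0.153 and 0.096 FPKM, and 0.123, 0.159 and 0.165 FPKM. These values rest on 32 to 73 estimated reads for Col13a1 and 9 to 62 for Col19a1. They were the only 2 of all 43 collagens with this order, which 8.04% of all genes tested had.

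Col10a1, the collagen of hypertrophic cartilage, was listed at 0 in control replicates 1 and 2 and at 0.369 FPKM in control replicate 3, about 36 estimated reads. The 6 Ubr4 siRNA libraries held 1 to 7 estimated reads each.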
